A study of Mus musculus with 2 samples.

Results

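Signalling through the Gq family of G proteins was examined by 10 genes, which were matched by symbol among the 31253 genes of the deposited tables. No cut on their values picked them, but earlier results of these data were known when they were chosen. They were the alpha subunits Gnaq, Gna11 and Gna14, the phospholipase C beta (PLC-beta) genes Plcb1, Plcb2, Plcb3 and Plcb4, the cytosolic phospholipase A2 gene Pla2g4a, and the anoctamins Ano1 and Ano3. They were described across the sensory neuron types of dorsal root ganglia, with the other cells of the ganglion as contrast. The data were 2 single-cell libraries of L4-5 ganglia from wild-type mice aged 8 weeks, made with droplet 3' chemistry. Both carried the label acetone-ether-water (AEW), a treatment known for dry skin and scratching. The labels of the 2 libraries name no other group, so each comparison set cell types against each other within AEW, and none shows an effect of AEW. Whether the 2 replicates were different animals is not given in the labels, and p-values may thus rest on technical spread.

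In this pathway a receptor at the cell surface activates a Gq-family alpha subunit, which switches on a PLC-beta enzyme. The enzyme cuts the membrane lipid PIP2 into IP3, which releases calcium from internal stores, and diacylglycerol, which activates protein kinase C. In sensory neurons these steps are known to follow receptors for histamine, bradykinin, proteases and chloroquine, and to act on ion channels, among them the calcium-activated chloride channel that Ano1 encodes.

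Cells were assigned to types by gates on marker genes that did not include the 10 genes. A neuron needed 10000 UMIs (counted RNA molecules) and 8 of 10 neuronal markers, both set after values had been seen, and 612 of 7774 kept cells in replicate 1 and 895 of 10270 in replicate 2 passed, while the submitters labelled the cells as neurons. Of these, 518 and 761 scored clearly for 1 of 8 types. NP1 neurons, non-peptidergic nociceptors with Mrgprd, numbered 135 in replicate 1 and 169 in replicate 2. The itch-associated NP2 neurons, with Mrgpra3, numbered 37 and 37, and NP3 neurons, with Nppb and Sst, 35 and 38. Peptidergic C-fibre nociceptors (PEP-C) numbered 110 and 186, peptidergic A-fibre nociceptors (PEP-A) 39 and 38, low-threshold C-fibre touch receptors (TH) 56 and 158, and large A-fibre neurons (NF) 59 and 96. NP1, NP2 and NP3 are called the non-peptidergic types below, a name that does not describe the peptide markers of NP2. Summed PEP-C markers (5 genes, Calca among them) were at 91.3 UMIs per 10000 in replicate 1 and 107.9 in replicate 2 in NP2. They were at 14.05 and 19.8 in NP1 and 4.43 and 5.09 in NP3, against 230 and 283 in PEP-C. The gate on Trpm8, Foxp2, Cdh8 and Gpr26 held 47 and 39 cells. Trpm8 itself stood there at 1.45 UMIs per 10000 in replicate 1 and 0.194 in replicate 2, and Grxcr2, Penk and Qrfpr led its genes, so it is called the Trpm8-Gpr26 gate and not by a cell type. At or above 1 Trpm8 UMI per 10000 were 24 of its cells in replicate 1 and 1 in replicate 2. In replicate 1 those cells had Gna14 at 0 and Plcb3 at 0.116, against 0.132 and 0.316 in the rest. The fits treat these unlike mixes as 1 type. The NF gate held summed NP1 markers (4 genes) at 0.486 UMIs per 10000 in replicate 1 and 2.01 in replicate 2, against 11.0 and 10.6 in NP1, with none of the 4 at 0. Most other marker lists were also higher in NF of replicate 2, such as PEP-C (5.59 and 21.4), TH (0.245 and 0.825) and erythroid (0.577 and 3.70). The lists of NF itself (41.7 and 32.05), the Trpm8-Gpr26 gate, non-myelinating Schwann cells and T or NK cells were not. Outside neurons 12 gates were used, and the one on Ly6c2, Plac8, Ccr2 and Chil3 is called by the first pair of its markers, since Elane, Mpo and Prtn3 led it. Median depth was 37225 to 164056 UMIs per cell over neuron types and libraries, and 2477 to 10905.5 over the other types. The 2 libraries shared 24 cell barcodes as deposited, of which 17 were kept.

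RNA set free during dissociation can reach every droplet, and the erythroid gate (red cell precursors) is given for comparison. That gate had Gnaq at 0.236 UMIs per 10000 in replicate 1 and 0.602 in replicate 2, Ano3 at 0.106 and 0.265, Plcb3 at 0.0354 and 0.255, and Gna14 at 0.0354 and 0.173. All 4 were higher there in replicate 2. Its cells were far shallower than neurons, with median depths of 8565 and 3954 UMIs, so values per cell are given as well. Erythroid cells held on average 0.20 and 0.249 Gnaq UMIs per cell, 0.0900 and 0.109 of Ano3, 0.0300 and 0.106 of Plcb3, and 0.0300 and 0.0717 of Gna14. The 10 neuronal markers summed to 147 to 191 UMIs per 10000 in neuron types and to 11.4 to 48.9 in the other types. All levels below are UMIs of a gene per 10000 UMIs of a type, summed over its cells in 1 library. Since the chemistry counts 1 tag per molecule, levels of different genes are not scaled by length.

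Gnaq, the alpha subunit that names the family, was the most abundant of the 10 genes in every neuron type of both libraries, and was highest in the non-peptidergic types. NP1 had 6.16 UMIs per 10000 in replicate 1 and 6.79 in replicate 2, NP3 had 6.11 and 4.88, and NP2 had 5.07 and 3.75. PEP-C followed with 3.73 and 2.91, TH with 2.65 and 2.85, PEP-A with 2.79 and 1.79, the Trpm8-Gpr26 gate with 2.20 and 1.64 and NF with 1.52 and 2.41. The 6 values of NP1, NP2 and NP3 lay above the 10 values of the other types, although NP2 in replicate 2 stood only just above PEP-C in replicate 1. TH overlapped PEP-A, and PEP-A overlapped NF and the Trpm8-Gpr26 gate. Against the mean of the other types on the log2 scale, Gnaq was higher in NP1 by 1.36 ± 0.14 (SE, adjusted p = 1.08e-06), in NP3 by 0.79 ± 0.15 (adjusted p = 0.000638) and in NP2 by 0.63 ± 0.15 (adjusted p = 0.00515). It was lower in PEP-A (−0.59 ± 0.17, adjusted p = 0.0151), in NF (−0.89 ± 0.17, adjusted p = 0.000611) and in the Trpm8-Gpr26 gate (−0.99 ± 0.18, adjusted p = 0.000408). The NP2 call was lost when the NF and Trpm8-Gpr26 gates were left out of the fit (0.32, adjusted p = 0.0707). These p-values come from edgeR's quasi-likelihood test on the 16 sums of 8 types and 2 libraries, adjusted over 13226 genes.

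Gna14, a Gq-family subunit of narrower expression, separated the non-peptidergic types from all others. It stood at 1.99 UMIs per 10000 in replicate 1 and 1.95 in replicate 2 in NP1, at 2.06 and 2.15 in NP2 and at 2.36 and 2.63 in NP3. PEP-C had 0.385 and 0.434, PEP-A 0.319 and 0.186, and NF 0.120 and 0.557. The Trpm8-Gpr26 gate had 0.0652 and 0.0851, and TH 0.0398 and 0.0688. Per cell, these 2 were at 0.426 and 0.359 UMIs in the Trpm8-Gpr26 gate and at 0.50 and 0.386 in TH, above the values of the far shallower erythroid cells. By level both lay below the erythroid gate in replicate 2 (0.173 UMIs per 10000) and above it in replicate 1 (0.0354). The 6 values of the non-peptidergic types did not overlap the 10 of the other types, the highest of which was NF in replicate 2. On the log2 scale Gna14 was higher than the mean of the other types by 2.70 ± 0.22 in NP1 (adjusted p = 9.1e-08), 2.71 ± 0.23 in NP2 (adjusted p = 4.04e-07) and 2.78 ± 0.23 in NP3 (adjusted p = 1.47e-07). It was lower in TH (−3.48 ± 0.39, adjusted p = 2.47e-06) and in the Trpm8-Gpr26 gate (−3.06 ± 0.45, adjusted p = 7.88e-05). NF did not pass (−0.63 ± 0.31, adjusted p = 0.112, although 0.000386 with no filter on low counts), and its values differed in sign between the libraries, at −1.85 in replicate 1 and 0.09 in replicate 2. The NP1 markers in the NF gate of replicate 2 moved with this value, as did most other marker lists, and their part in it was not tested.

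The share of cells with a Gna14 molecule was likewise highest in the non-peptidergic types, where it was close to its upper limit. Thinned to 20000 UMIs per cell, Gna14 was found in 98.5% of NP1 neurons in replicate 1 and 96.7% in replicate 2, in 100% and 96.6% of NP2 and in 97.1% and 100% of NP3. PEP-C had 32.1% and 33.5%, PEP-A 30.6% and 18.8%, and TH 5.36% and 8.82%. Without thinning PEP-C had 44.6% and 40.9%. At 2000 UMIs, the depth that other cells allow, NP1 had 30.4% (41 of 135 cells) and 37.3% (63 of 169), and the erythroid gate had 0 of 93 cells, which at 3 counts of the total allows a share of cells with a UMI of up to 3.23%, and 3.83% (8 of 209). Median depths before thinning were 164056 and 78752 UMIs in NP1 and 8565 and 3954 in the erythroid gate. At 20000 UMIs the non-peptidergic types carried Gna14 in nearly every cell and PEP-C in a part of its cells.

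Gna11, which is expressed widely in the body, varied least between neuron types. Its 16 values ran from 0.790 UMIs per 10000 in NF of replicate 1 to 1.69 in NP2 of replicate 2. NP3 had 1.69 and 1.66, NP2 1.53 and 1.69, PEP-C 1.41 and 1.47, NP1 1.45 and 1.35, TH 1.19 and 1.35, PEP-A 1.26 and 1.26, the Trpm8-Gpr26 gate 1.15 and 1.17, and NF 0.790 and 0.845. NF lay below every other type in both libraries and was lower than their mean on the log2 scale (−0.83 ± 0.10, adjusted p = 1.07e-05). The calls for NP1 (0.34 ± 0.09, adjusted p = 0.00763), NP2 (0.47 ± 0.09, adjusted p = 0.00137) and NP3 (0.34 ± 0.10, adjusted p = 0.0135) were small. The NP1 call was lost without TMM scaling factors (0.12, adjusted p = 0.321) and the NP3 call without a filter on low counts (0.29, adjusted p = 0.0997). Both were also lost without the NF and Trpm8-Gpr26 gates (0.15, adjusted p = 0.221, and 0.17, adjusted p = 0.195).

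Of the UMIs of these 3 alpha subunits in neuron types, Gnaq made up between 49.4% (NP2, replicate 2) and 68.3% (TH, replicate 1). Gna14 took 20.7% and 19.4% in NP1, 23.8% and 28.3% in NP2 and 23.2% and 28.7% in NP3, against 6.97% and 9.0% in PEP-C and 1.02% and 1.61% in TH. The 3 genes together reached 9.60 and 10.1 UMIs per 10000 in NP1 and 10.2 and 9.17 in NP3, against 2.42 and 3.81 in NF. Gnaq and Gna14 lie side by side on mouse chromosome 19, at chr19:16132831-16387463 and chr19:16435762-16610820 in build GRCm38 (GENCODE release 21), both on the plus strand with 48298 bases between them.

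**Figure D1:**
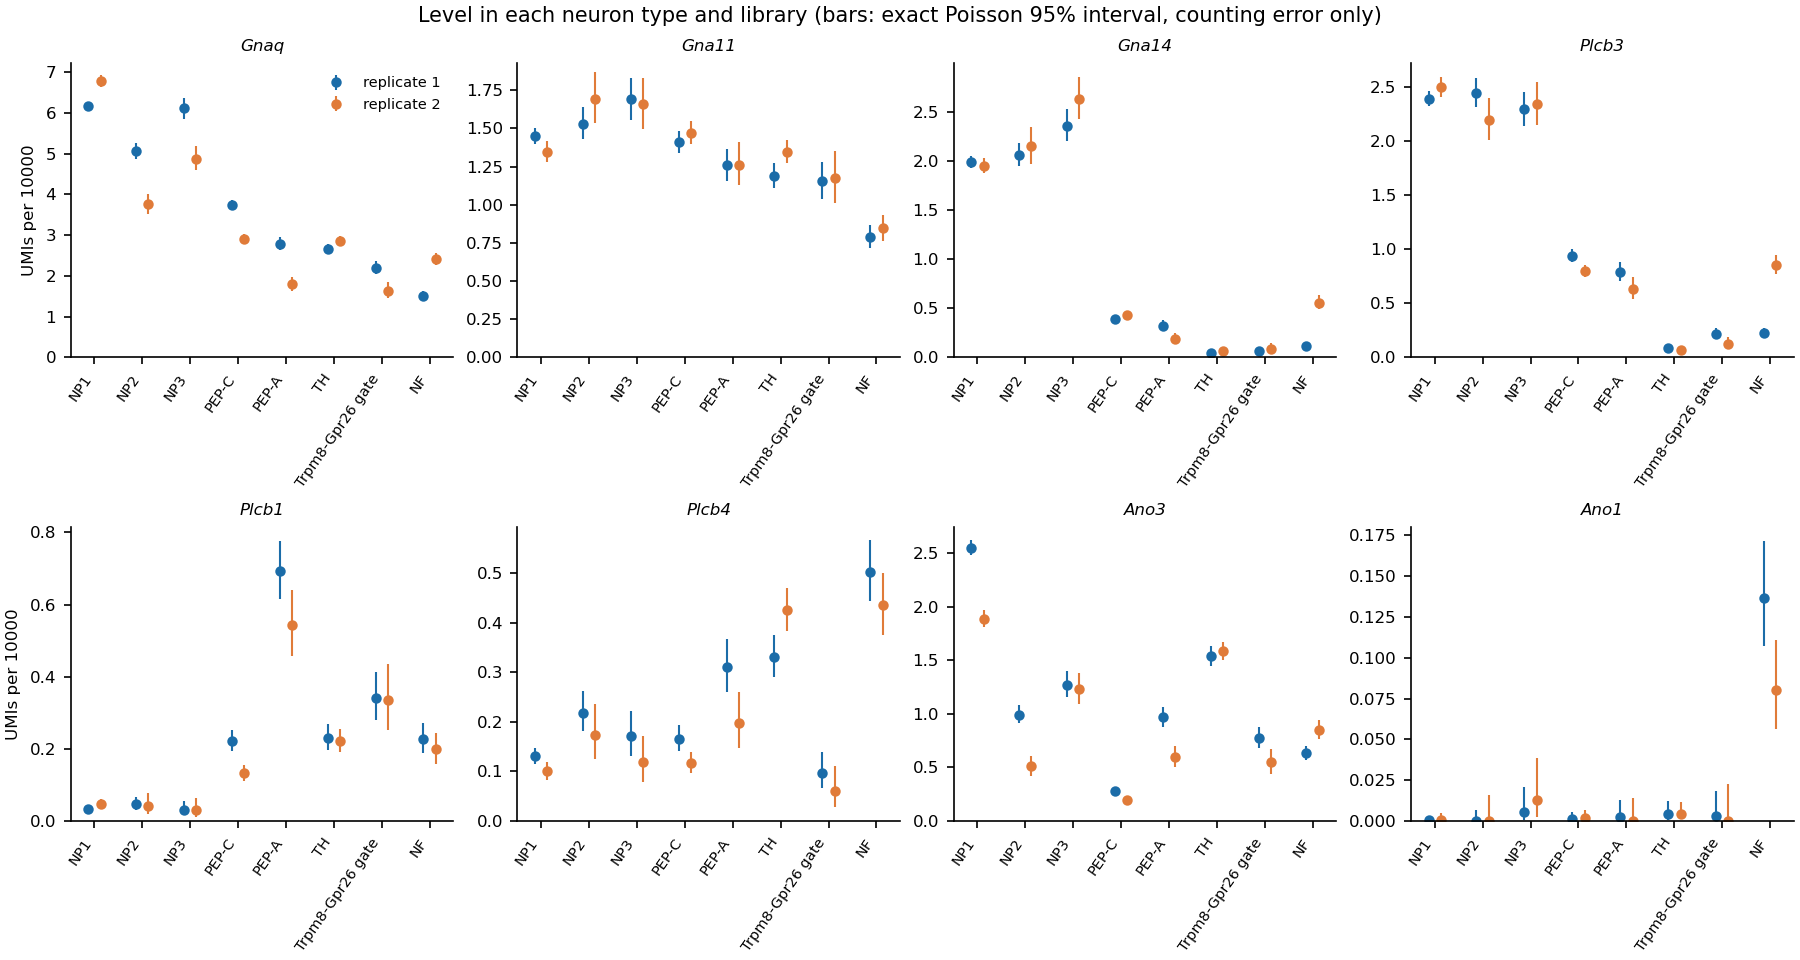
Level of 8 genes in each neuron type, in UMIs per 10000 on axes that start at 0. Each point is 1 library (blue, replicate 1; orange, replicate 2) with its exact Poisson 95% interval, which covers counting error only. Gna14 and Plcb3 stand high in NP1, NP2 and NP3, where Plcb1 is lowest, and Ano1 stands above 0.08 in NF alone.

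The stretch just before the gene start is shown for Gnaq, Gna14 and Plcb3, which were all high in the non-peptidergic types. Each line gives the 200 bases before the RefSeq start on build GRCm38.p6, 5′ to 3′ on the gene's strand, with capitals for the GC box GGGCGG on either strand (CCGCCC). The windows lie at chr19:16132484-16132683 (plus) for Gnaq, chr19:16435467-16435666 (plus) for Gna14 and chr19:6969815-6970014 (minus) for Plcb3, and none overlaps an exon of its gene in GENCODE. The Plcb3 window lies inside the gene's GENCODE span, chr19:6952325-6976470.
Gnaq: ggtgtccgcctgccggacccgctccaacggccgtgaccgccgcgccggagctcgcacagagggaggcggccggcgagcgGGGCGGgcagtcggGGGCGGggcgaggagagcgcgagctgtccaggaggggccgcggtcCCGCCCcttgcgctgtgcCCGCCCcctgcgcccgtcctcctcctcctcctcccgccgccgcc
Gna14: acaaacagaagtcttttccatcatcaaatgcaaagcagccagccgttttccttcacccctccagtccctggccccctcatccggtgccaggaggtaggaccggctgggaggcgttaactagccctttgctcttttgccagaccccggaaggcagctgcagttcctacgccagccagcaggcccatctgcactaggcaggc
Plcb3: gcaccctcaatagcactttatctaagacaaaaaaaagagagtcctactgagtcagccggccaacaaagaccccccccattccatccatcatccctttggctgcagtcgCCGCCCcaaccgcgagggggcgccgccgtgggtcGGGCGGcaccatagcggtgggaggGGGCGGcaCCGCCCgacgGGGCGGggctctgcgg
The Gnaq window held 4 GC boxes and the Plcb3 window 5, while these letters are not in the Gna14 window. Of 32851 such windows of mouse genes, 31% held a GC box. The core TGTGGT, or on the other strand ACCACA, which RUNX factors bind, was in none of the 3 windows and in 11.2% of all windows. A match describes the letters and not a bound site.

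Plcb3 was the main PLC-beta gene of the non-peptidergic types. PLC-beta 3 is known to act downstream of itch receptors such as those for histamine and chloroquine. NP1 had 2.39 UMIs per 10000 in replicate 1 and 2.50 in replicate 2, NP2 had 2.45 and 2.20, and NP3 had 2.29 and 2.35. PEP-C had 0.942 and 0.798, PEP-A 0.789 and 0.635, and NF 0.226 and 0.854. The Trpm8-Gpr26 gate (0.215 and 0.122) and TH (0.0880 and 0.0721) were lowest. Per cell, Plcb3 was at 1.40 and 0.513 UMIs in the Trpm8-Gpr26 gate and at 1.11 and 0.405 in TH, above the far shallower erythroid cells. By level both lay below the erythroid gate in replicate 2 (0.255 UMIs per 10000) and above it in replicate 1 (0.0354). NP1, NP2 and NP3 overlapped among themselves, and their 6 values did not overlap the 10 of the other types. Plcb3 was higher than the mean of the other types by 2.27 ± 0.21 in NP1 (log2 ± SE, adjusted p = 3.8e-07), 2.10 ± 0.22 in NP2 (adjusted p = 4.02e-06) and 1.89 ± 0.23 in NP3 (adjusted p = 8.32e-06). It was lower in TH (−3.61 ± 0.36, adjusted p = 7.13e-07) and in the Trpm8-Gpr26 gate (−2.39 ± 0.36, adjusted p = 0.000107). NF did not pass (−0.57 ± 0.28, adjusted p = 0.116), at −1.78 in replicate 1 and 0.21 in replicate 2, the same split between libraries as for Gna14. It did pass with no filter on low counts (−0.57, adjusted p = 0.000691) and under a stricter gate (−0.72, adjusted p = 0.0222).

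Plcb1 was lowest in the types where Plcb3 was highest. It was highest in PEP-A, with 0.693 and 0.542 UMIs per 10000, followed by the Trpm8-Gpr26 gate with 0.342 and 0.334, TH with 0.230 and 0.222, NF with 0.228 and 0.198, and PEP-C with 0.221 and 0.133. NP1 had 0.0343 and 0.0467, NP2 0.0459 and 0.0425, and NP3 0.0315 and 0.0307, against 0.0354 and 0.0730 in the erythroid gate. Per cell these were 0.519 and 0.325 UMIs in NP1, 0.676 and 0.270 in NP2 and 0.314 and 0.184 in NP3, against 0.0300 and 0.0302 in the erythroid gate. PEP-A lay above, and the 3 non-peptidergic types below, all other neuron types in both libraries. Plcb1 was higher in PEP-A by 2.53 ± 0.14 (adjusted p = 1.62e-09), in the Trpm8-Gpr26 gate by 1.41 ± 0.17 (adjusted p = 1.31e-05), in TH by 0.87 ± 0.15 (adjusted p = 0.000221) and in NF by 0.73 ± 0.16 (adjusted p = 0.00193). It was lower in NP1 (−1.78 ± 0.18, adjusted p = 1.34e-06), in NP2 (−1.69 ± 0.24, adjusted p = 7.98e-05) and in NP3 (−2.48 ± 0.28, adjusted p = 4.79e-06).

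Plcb4 was highest in NF, with 0.502 and 0.435 UMIs per 10000, and in TH, with 0.331 and 0.425. PEP-A followed with 0.310 and 0.198. NF, TH and PEP-A did not overlap one another, although TH of replicate 1 lay just above PEP-A of the same library. NP2 had 0.219 and 0.174, NP3 0.172 and 0.118, PEP-C 0.166 and 0.117, NP1 0.131 and 0.100 and the Trpm8-Gpr26 gate 0.0978 and 0.0608. Plcb4 was higher in NF by 1.42 ± 0.14 (log2 ± SE, adjusted p = 5.95e-07) and in TH by 1.14 ± 0.14 (adjusted p = 5.39e-06), and lower in the Trpm8-Gpr26 gate (−1.53 ± 0.24, adjusted p = 0.000114) and in NP1 (−0.61 ± 0.15, adjusted p = 0.00436). Satellite glia, which wrap neurons, had 0.619 and 0.641. The summed satellite glia markers (5 genes, none at 0) were 7.59 and 13.9 in NF and 12.4 and 13.7 in TH, against 31.0 and 29.5 in the Trpm8-Gpr26 gate, where Plcb4 was lowest. The part of glial RNA in these values was not tested. Plcb2, the form typical of blood cells and taste cells, gave 10 UMIs in all neuron types and both libraries together and was not tested there.

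The make-up of the PLC-beta family therefore differed between types. Plcb3 gave 93.5% of PLC-beta UMIs in NP1 of replicate 1 (exact 95% interval 92.8 to 94.2) and 94.4% in replicate 2, 90.3% and 91.0% in NP2, and 91.9% and 94.0% in NP3. Its share was 70.8% and 75.9% in PEP-C, 44.0% and 46.2% in PEP-A and 13.6% and 10.0% in TH. In TH most of the rest was Plcb4, with 51.0% and 59.0%, and in PEP-A it was Plcb1, with 38.7% and 39.4%. The NF gate gave 23.6% for Plcb3 in replicate 1 and 57.3% in replicate 2, and 52.4% and 29.2% for Plcb4. The family as a whole was at 2.56 and 2.65 UMIs per 10000 in NP1, against 0.649 and 0.720 in TH and 0.655 and 0.516 in the Trpm8-Gpr26 gate. At 20000 UMIs per cell, Plcb1 and Plcb3 were found together in 19 of 36 PEP-A neurons in replicate 1 and 15 of 32 in replicate 2, a larger share than in any other neuron type of the same library. PEP-C held both in 21 of 106 and 23 of 167 cells, NF in 2 of 47 and 15 of 68, NP1 in 10 of 130 and 15 of 152, and TH in 2 of 56 and 3 of 136.

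**Figure D2:**
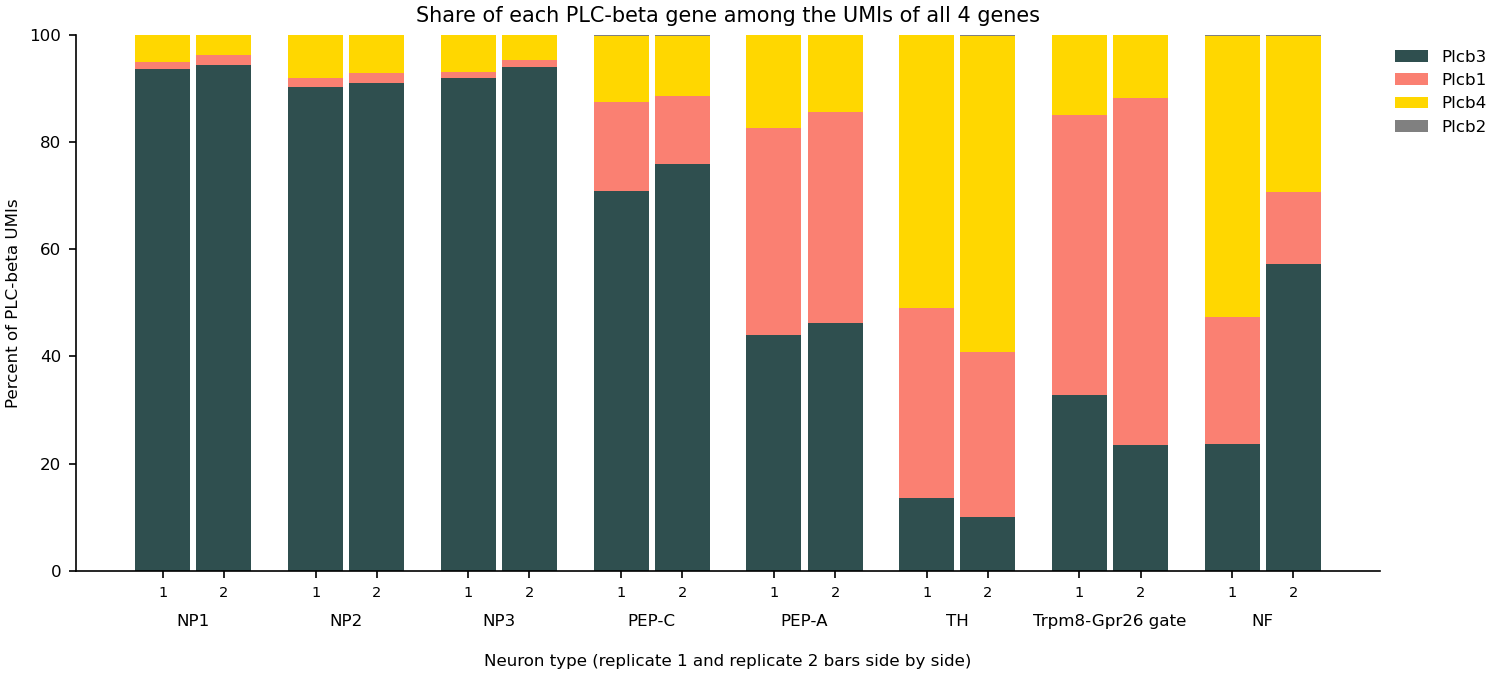
Percent of all PLC-beta UMIs that came from each of the 4 genes, by neuron type (bars 1 and 2 are the replicates). Plcb3 fills 90.3% to 94.4% of the bars of NP1, NP2 and NP3, while Plcb4 is the largest part in TH and Plcb1 in the Trpm8-Gpr26 gate. In NF the libraries differ, with Plcb4 largest in replicate 1 (52.4%) and Plcb3 in replicate 2 (57.3%).

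Within PEP-C the genes were not even. The type was split at 1 UMI per 10000 of Sstr2, one of the gate's own markers and a receptor for somatostatin. Marker and cut were chosen after the levels had been seen, so the values are given with no test. PEP-C neurons at or above the cut (55 cells in replicate 1, 86 in replicate 2) had Gna14 at 0.156 and 0.127 UMIs per 10000, against 0.561 and 0.681 in those below it (55 and 100 cells). Plcb1 was at 0.0606 and 0.0479 above the cut, against 0.345 and 0.202 below it. Both genes were lower in the Sstr2 cells of both libraries. So were Plcb4, at 0.0909 and 0.0874 above, against 0.223 and 0.141 below, and Ano3, at 0.166 and 0.171 above, against 0.361 and 0.219 below. Plcb3 was at 0.699 and 0.639 above, against 1.13 and 0.927 below, and Gnaq at 3.80 and 3.16 above, against 3.68 and 2.71 below.

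Pla2g4a, whose enzyme frees arachidonic acid from membranes, was nearly absent from neurons. The 8 types held 3 of its UMIs among 58984927 in replicate 1 and 1 among 44753095 in replicate 2. Non-neuronal types held 176 and 193, at 0.0511 and 0.0607 per 10000. The ratio of neurons to other types was 0.00995 in replicate 1 (exact 95% counting interval 0.00203 to 0.0296) and 0.00368 in replicate 2 (9.27e-05 to 0.0207). Macrophages had 0.287 and 0.232 UMIs per 10000 and fibroblasts 0.217 and 0.229, while satellite glia, which gave the most UMIs (91 and 100), were at 0.0453 and 0.0565. Neutrophils had 0.292 and 0.0756 (7 and 2 UMIs) and the Ly6c2-Plac8 gate 0.171 and 0.228 (4 and 5 UMIs), so macrophages and fibroblasts were not the only types with such levels. Summed, a grouping chosen after their levels had been seen, macrophages and fibroblasts were 6.88 times (counting interval 4.97 to 9.46) the level of the other non-neuronal types, neutrophils and the Ly6c2-Plac8 gate included, in replicate 1 and 5.68 times (4.20 to 7.63) in replicate 2.

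Ano3, which encodes a membrane protein of the anoctamin family described in nociceptors, was found in all neuron types. NP1 had 2.55 and 1.89 UMIs per 10000, TH 1.54 and 1.58, and NP3 1.27 and 1.23. PEP-A had 0.970 and 0.597, NP2 0.992 and 0.510, NF 0.633 and 0.850, and the Trpm8-Gpr26 gate 0.772 and 0.547. PEP-C was lowest in both libraries, with 0.276 and 0.197. NP1, TH and NP3 overlapped no other type, and PEP-A, NP2, NF and the Trpm8-Gpr26 gate overlapped one another. Ano3 was higher in NP1 by 1.77 ± 0.14 (log2 ± SE, adjusted p = 5.91e-08), in TH by 0.98 ± 0.15 (adjusted p = 6.82e-05) and in NP3 by 0.55 ± 0.16 (adjusted p = 0.0175, but 0.0764 with no replicate block), and lower in PEP-C (−2.19 ± 0.20, adjusted p = 4.25e-07). At 20000 UMIs per cell it was found in 96.9% and 94.1% of NP1 neurons, against 30.2% and 28.7% of PEP-C neurons. Without thinning these were 100% and 98.2%, against 71.8% and 55.4%, and at 2000 UMIs 37.0% and 29.6%, against 6.36% and 5.91%, with 4.30% and 5.74% in the erythroid gate. By level PEP-C of replicate 2 lay below the erythroid gate of that library (0.265 UMIs per 10000), while per cell PEP-C held 2.48 and 1.14 Ano3 UMIs, against 0.0900 and 0.109 in the erythroid gate.

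Ano1 was almost confined to NF among the gated neurons. NF held 73 UMIs in replicate 1 and 36 in replicate 2, at 0.136 and 0.0803 per 10000, while the 7 other types together held 9 and 10, at 0.00168 and 0.00248. The ratio, for a type chosen after the levels had been seen, was 81.2 (exact 95% counting interval 40.5 to 184.7) in replicate 1 and 32.3 (15.7 to 73.0) in replicate 2. NP2 held none in either library. Because NP2 at 0 enters the mean of the others, no fitted fold is given for Ano1. In NF 20 of 59 cells in replicate 1 and 20 of 96 in replicate 2 held a UMI. Thinned to 20000 UMIs, these were 12 of 47 and 2 of 68 cells, and at 2000 UMIs 3 of 59 and 3 of 96, against 0 of 93 (which allows a share of cells with a UMI of up to 3.23%) and 1 of 209 in the erythroid gate. Per cell NF held 1.24 and 0.375 Ano1 UMIs, against 0 and 0.0113 in the erythroid gate.

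The NF cells were split at 1 UMI of Pvalb, the parvalbumin gene of muscle-sensing neurons, per 10000. Pvalb is a marker of the gate, and the split was again chosen after the levels had been seen and has no test. Cells at or above the cut (20 in replicate 1, 54 in replicate 2) had Ano1 at 0.403 UMIs per 10000 (exact Poisson 95% interval 0.308 to 0.517) in replicate 1 and 0.103 (0.0664 to 0.151) in replicate 2. Those below it (39 and 42 cells) had 0.0313 (0.0161 to 0.0546) and 0.0537 (0.0268 to 0.0962). In replicate 1 the intervals lay apart, and in replicate 2 they overlapped. In replicate 2 the cells above the cut also had Plcb3 at 1.11 and Gna14 at 0.788, against 0.547 and 0.283 below it, while in replicate 1 Plcb3 was at 0.172 above and 0.247 below, and Gna14 at 0.132 above and 0.115 below.

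**Figure D3:**
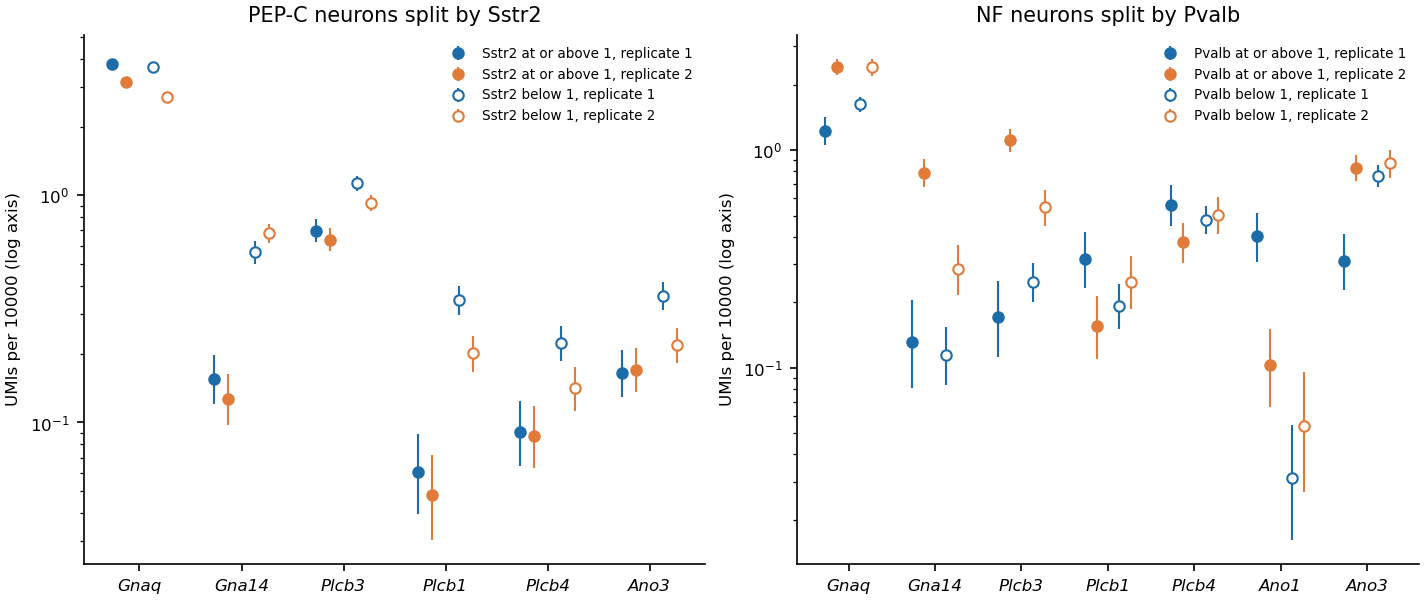
Levels in UMIs per 10000 (log axis) in PEP-C neurons split by Sstr2 and in NF neurons split by Pvalb, both at 1 UMI of the marker per 10000. Filled points are cells at or above the cut and open points those below it, with exact Poisson 95% intervals. Gna14 and Plcb1 lie lower in Sstr2 cells of both libraries, as do Plcb3, Plcb4 and Ano3. Ano1 lies higher in Pvalb cells, with intervals apart in replicate 1.

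By type, the number of genes called at an adjusted p under 0.05 has to be read against a high background, the share of all 13226 genes called in the same direction. Of the 10 genes 8 passed the filter on low counts and Plcb2 and Pla2g4a did not. Ano1 passed through NF, where it was high, so its call there is no support, although the NF count below includes it. In NP1 5 were higher and 2 lower, where 22.9% of all genes were called higher and 19.7% lower. The counts were 4 higher and 1 lower in NP2 (15.5% higher and 13.4% lower among all genes), 5 and 1 in NP3 (16% and 16.4%) and 2 and 1 in PEP-A (17.4% and 10%). They were 3 and 2 in TH (20.9% and 15.7%), 1 and 6 in the Trpm8-Gpr26 gate (17.9% and 14.5%) and 3 and 2 in NF (24.2% and 16.8%). In PEP-C (17.8% and 11.4%) 2 were called, both lower: Ano3 and Plcb4 (−0.55 ± 0.15, adjusted p = 0.0132, but 0.0687 with no replicate block and 0.0502 with Leiden clusters). The Trpm8-Gpr26 gate and NP1, with 7 of 8 called, had the highest counts, where in the Trpm8-Gpr26 gate Ano3 (−0.56 ± 0.19, adjusted p = 0.032) and Gna11 (−0.31 ± 0.10, adjusted p = 0.0331) were lower. Both of these calls were lost with no replicate block (adjusted p = 0.106 and 0.0703) and without TMM factors (adjusted p = 0.116 and 0.194). The Gna11 call was also lost without a filter on low counts (adjusted p = 0.0511).

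The title of the series names pain and itch, so the itch-associated types NP2 and NP3 were set against the peptidergic types PEP-C and PEP-A. Of the 8 genes tested 5 were higher and 1 lower, where 15.6% of all genes were called higher and 20% lower. Gna14 differed most upward: NP2 and NP3 had 2.06 and 2.36 UMIs per 10000 in replicate 1 and 2.15 and 2.63 in replicate 2, against 0.385 and 0.319 in PEP-C and PEP-A of replicate 1 and 0.434 and 0.186 in those of replicate 2. Its log2 difference was 2.84 ± 0.26 (SE, adjusted p = 4.15e-07). Plcb1 differed most downward (−3.11 ± 0.20, adjusted p = 8.98e-09), and the 4 values of each side lay apart for both genes. Plcb3 was higher by 1.60 ± 0.24 (adjusted p = 6.45e-05), Ano3 by 1.23 ± 0.16 (adjusted p = 1.85e-05), Gnaq by 0.88 ± 0.15 (adjusted p = 0.000199) and Gna11 by 0.33 ± 0.09 (adjusted p = 0.0103). Each had the same sign in both libraries. The values of Ano3 overlapped between the sides, since PEP-A reached 0.970 in replicate 1 while NP2 was at 0.510 in replicate 2. The Gna11 call was lost without a filter on low counts (0.29, adjusted p = 0.0776). Plcb4 did not pass (−0.12 ± 0.16, adjusted p = 0.623), which does not show that the sides are alike. NP1, a nociceptor type, was on neither side. It had Gna14 at 1.99 and 1.95 UMIs per 10000, Plcb3 at 2.39 and 2.50, Plcb1 at 0.0343 and 0.0467 and Ano3 at 2.55 and 1.89. For these genes NP1 thus stood with or beyond NP2 and NP3, so their differences are not particular to the itch-associated types.

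**Figure D4:**
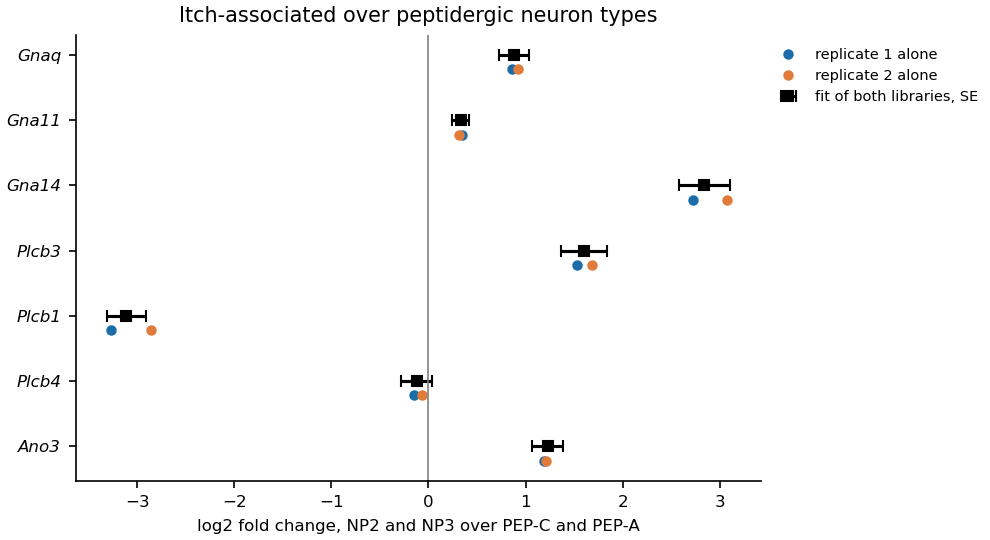
Log2 fold change of NP2 and NP3 over PEP-C and PEP-A for 7 genes. Squares are the fit of both libraries with its SE and circles are each library alone; Gna14 (2.84) lies farthest right, Plcb1 (−3.11) farthest left, and Plcb4 (−0.12) at 0.

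Other genes of the pathway moved in both directions in this comparison. The median of all genes tested was −0.03. Of 9 other G alpha genes tested 4 were higher and 2 lower (median 0.13), among them Gnal, the olfactory form (1.23 ± 0.11, adjusted p = 2.63e-07), and Gna13, of the G12 family (−0.99 ± 0.11, adjusted p = 1.79e-06). Of 15 G beta and gamma genes 7 were higher and 3 lower (median 0.29), with the gamma subunits Gng2 higher (1.27 ± 0.14, adjusted p = 2.18e-06) and Gng8 lower (−3.84 ± 0.23, adjusted p = 5.73e-09). The 22 effectors of IP3 and diacylglycerol gave 7 higher and 5 lower (median 0.02), and protein kinase C genes were called in both directions. Averaged over types in TMM-scaled UMIs per 10000, Prkca was at 4.32 in replicate 1 and 3.69 in replicate 2 in the itch-associated types, against 0.872 and 0.693 in the peptidergic types (2.31 ± 0.23, adjusted p = 1.15e-06). Prkcb was at 0.0239 and 0.0330, against 1.54 and 1.41 in the peptidergic types (−5.06 ± 0.24, adjusted p = 7.31e-10).

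Of 16 regulators of G proteins and their receptors, not all of them specific to Gq, 6 were higher and 4 lower (median 0.45). Among them was Rgs4, which speeds the shut-off of Gq, at 10.6 and 11.5 in the itch-associated types, against 1.75 and 1.93 in the peptidergic types (2.47 ± 0.16, adjusted p = 1.38e-08). Of 18 receptors on a list drawn up for Gq coupling, which need not be the main coupling of each, 4 were higher and 6 lower (median −0.55). Among them F2rl2, a protease-activated receptor, was higher (0.91 ± 0.13, adjusted p = 2.79e-05) and Ptger1, a prostaglandin E2 receptor, lower (−1.22 ± 0.13, adjusted p = 2.06e-06). The other receptors called were the histamine receptor Hrh1, F2rl1 and Ednra, which were higher, and Bdkrb2, F2r, Grm5, Ntsr2 and Ptger3, which were lower, all under the level of 20 CPM set for naming with a fold. Receptors used as gate markers were not on the list, such as Mrgpra3 (3.39 and 6.34 UMIs per 10000 in NP2, against 0.00303 and 0.0102 in PEP-C). The median of the list thus does not speak for all receptors of the pathway. Of 9 channels downstream of Gq 2 were higher and 3 lower (median 0.07), among them Trpc6, a channel that diacylglycerol opens, which was higher (5.10 ± 0.45, adjusted p = 2.46e-07). Of 15 genes of PIP2 supply 3 were higher and 6 lower (median −0.07), among them Pitpnc1, a lipid transfer protein (1.54 ± 0.12, adjusted p = 9.56e-08), and Pip4k2b, a phosphoinositide kinase (−1.10 ± 0.14, adjusted p = 9.45e-06). Of 9 other phospholipase C genes Plcd3 and Plcl2 were higher and Plcd4, Plce1 and Plch2 lower (median −0.47). Of 8 genes of other phospholipase A2 forms and their receptor, Pla2g7 and Pla2r1 were higher and Pla2g12a and Pla2g3 lower (median −0.03). Of 4 other anoctamins Ano6, a lipid scramblase, was higher (0.74 ± 0.18, adjusted p = 0.0041). These names were added after their values had been seen. All counts have to be read against the 15.6% of genes called higher and 20% called lower.

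Across the 8 neuron types Gna14 and Plcb3 had like patterns, with Pearson's r of 0.98 in replicate 1 and 0.96 in replicate 2 on log2 levels, given as a description of 8 points that share their 2 libraries. Gna14 and Plcb1 ran opposite, at −0.79 and −0.88. Among 9679 genes at 10 CPM or more in some type, those whose pattern was most like that of Gna14 were Prkca (0.982 and 0.980), Gnal (0.981 and 0.978) and Carhsp1 (0.977 and 0.980). For Plcb3 they were Prkag2 (0.974 and 0.970), Plek2 (0.966 and 0.986) and Tmem233 (0.967 and 0.965). For Gnaq they were Pkig, Snx11 and Nol4l (r from 0.941 to 0.980), for Plcb1 Bche, Dcun1d4 and Jdp2 (0.928 to 0.986), and for Plcb4 Sgms2, Pctp and Nek7 (0.906 to 0.962). Gna11 was most like Ppp2cb, Bcl10 and Cyb5a (0.927 to 0.972), and Ano3 most like Tmem200a, Klhl29 and Prkcz (0.874 to 0.935).

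Neuron types were then set against the 12 non-neuronal types, in a fit of 40 sums and 14673 genes. Of the 10 genes 5 were higher in neurons and 2 lower, where 37.1% of all genes were called higher and 23.1% lower and the median of all genes was 0.10. Gnaq ran from 1.52 to 6.79 UMIs per 10000 over neuron types and libraries, against 0.236 to 1.92 over other types (log2 1.40 ± 0.09, adjusted p = 1.84e-15). Gna14 ran from 0.0398 to 2.63, against 0 to 0.504 (1.73 ± 0.20, adjusted p = 4.75e-09), Ano3 from 0.197 to 2.55, against 0.0427 to 0.567 (1.91 ± 0.14, adjusted p = 2.33e-13), and Plcb3 from 0.0721 to 2.50, against 0.0354 to 0.707 (1.26 ± 0.16, adjusted p = 1.85e-08). All of these ranges overlapped. The folds differed between libraries, with Ano3 at 2.54 in replicate 1 alone and 1.41 in replicate 2, and Plcb3 at 1.85 and 0.81. Gna11 was higher in the mean of neuron types by 0.91 ± 0.08 (adjusted p = 1.27e-11), but ran from 0.790 to 1.69, against 0.0589 to 2.10. Smooth muscle (1.81 and 2.10) and endothelial cells (1.93 and 1.91) lay above every neuron type. Plcb1 was lower (−0.46 ± 0.15, adjusted p = 0.00733). Its call was lost without TMM factors (−0.29, adjusted p = 0.0948), with Leiden clusters (−0.32, adjusted p = 0.0947) and without a filter on low counts (−0.36, adjusted p = 0.0672). Plcb4 was lower as well (−0.70 ± 0.17, adjusted p = 0.00074). Its fold was 0.04 in replicate 1 alone, where B cells held 0 UMIs of it, and −0.97 in replicate 2 alone. The neuronal markers found in non-neuronal gates move with these levels, and their part in the differences was not tested. Ano1, Plcb2 and Pla2g4a had types at 0 UMIs in both libraries, so no fitted fold is given for them. These genes could also pass the filter on low counts through the types where they were high, so their calls there are no support. The counts of genes called in pericytes, smooth muscle, fibroblasts and macrophages below include such calls. Gna14 was at 0 in B cells of replicate 1 and in the Ly6c2-Plac8 gate of replicate 2, so its folds in single libraries are not given here.

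In cells of the vessel wall other members of the family came forward. Endothelial cells, which line vessels, had the highest Plcb1 of all 20 types, at 1.47 and 1.60 UMIs per 10000, and were higher than the other non-neuronal types by 3.48 ± 0.15 on the log2 scale (adjusted p = 2.09e-19). They also had Gna11 at 1.93 and 1.91 (1.72 ± 0.14, adjusted p = 2.99e-12), and 3 of the 10 genes were higher there and 1 lower, where 28.8% of all genes were called higher and 12.1% lower. Smooth muscle had Plcb4 at 1.21 and 1.29 (2.28 ± 0.22, adjusted p = 5.15e-10) and Gna11 at 1.81 and 2.10 (1.72 ± 0.16, adjusted p = 1.84e-10), with 4 higher and 1 lower, where 15% of all genes were called higher and 5.32% lower. In pericytes, which wrap capillaries, 3 were called, all higher (8.83% higher and 2.47% lower among all genes), among them Plcb4 at 0.978 and 0.722 (1.38 ± 0.29, adjusted p = 0.000776), a call that a stricter gate ended (0.90, adjusted p = 0.148). Ano1 was at 1.69 and 1.57 in pericytes and 1.59 and 1.26 in smooth muscle. These gates together, chosen after their levels had been seen, were 116.6 times (counting interval 89.2 to 153.5) the level of all neuron types in replicate 1 and 133.7 times (95.6 to 190.1) in replicate 2, and 84.5 times (63.1 to 114.4) and 93.6 times (66.8 to 133.5) that of the other non-neuronal types.

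Glia and blood cells differed again. Myelinating Schwann cells had Plcb1 at 0.840 and 0.590 UMIs per 10000 (2.21 ± 0.17, adjusted p = 2.44e-12), with 3 of the 10 genes called, all higher (18.1% higher and 7.05% lower among all genes). Satellite glia had Plcb4 at 0.619 and 0.641 (1.35 ± 0.19, adjusted p = 3.85e-07) but Plcb1 at 0.0588 and 0.0548 (−1.58 ± 0.22, adjusted p = 5.78e-07), with 2 higher and 2 lower, where 28.6% of all genes were called higher and 12.5% lower. In fibroblasts Plcb4, Gna11 and Pla2g4a were called, all higher (20.2% higher and 6.32% lower among all genes). In non-myelinating Schwann cells Plcb4 was higher (0.79 ± 0.27, adjusted p = 0.0398), where 12.1% of all genes were called higher and 3.71% lower. That call was lost under a stricter gate (0.85, adjusted p = 0.0832), with Leiden clusters (0.50, adjusted p = 0.119) and with 10% mitochondrial UMIs (0.76, adjusted p = 0.0556). Plcb2 was found in neutrophils, at 0.334 and 0.303 (8 UMIs in each library), in macrophages, at 0.0766 and 0.131 (8 and 17 UMIs), in the Ly6c2-Plac8 gate (4 and 2 UMIs), in B cells (0 and 3 UMIs) and in fibroblasts (0 and 1 UMI). Satellite glia, Schwann cells, endothelial cells and the vessel wall gates held none in either library. Macrophages also had low Gna11 (0.191 and 0.371, −1.19 ± 0.22, adjusted p = 5.45e-05), with 3 genes higher and 3 lower, where 16.4% of all genes were called higher and 5.63% lower.

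**Figure D5:**
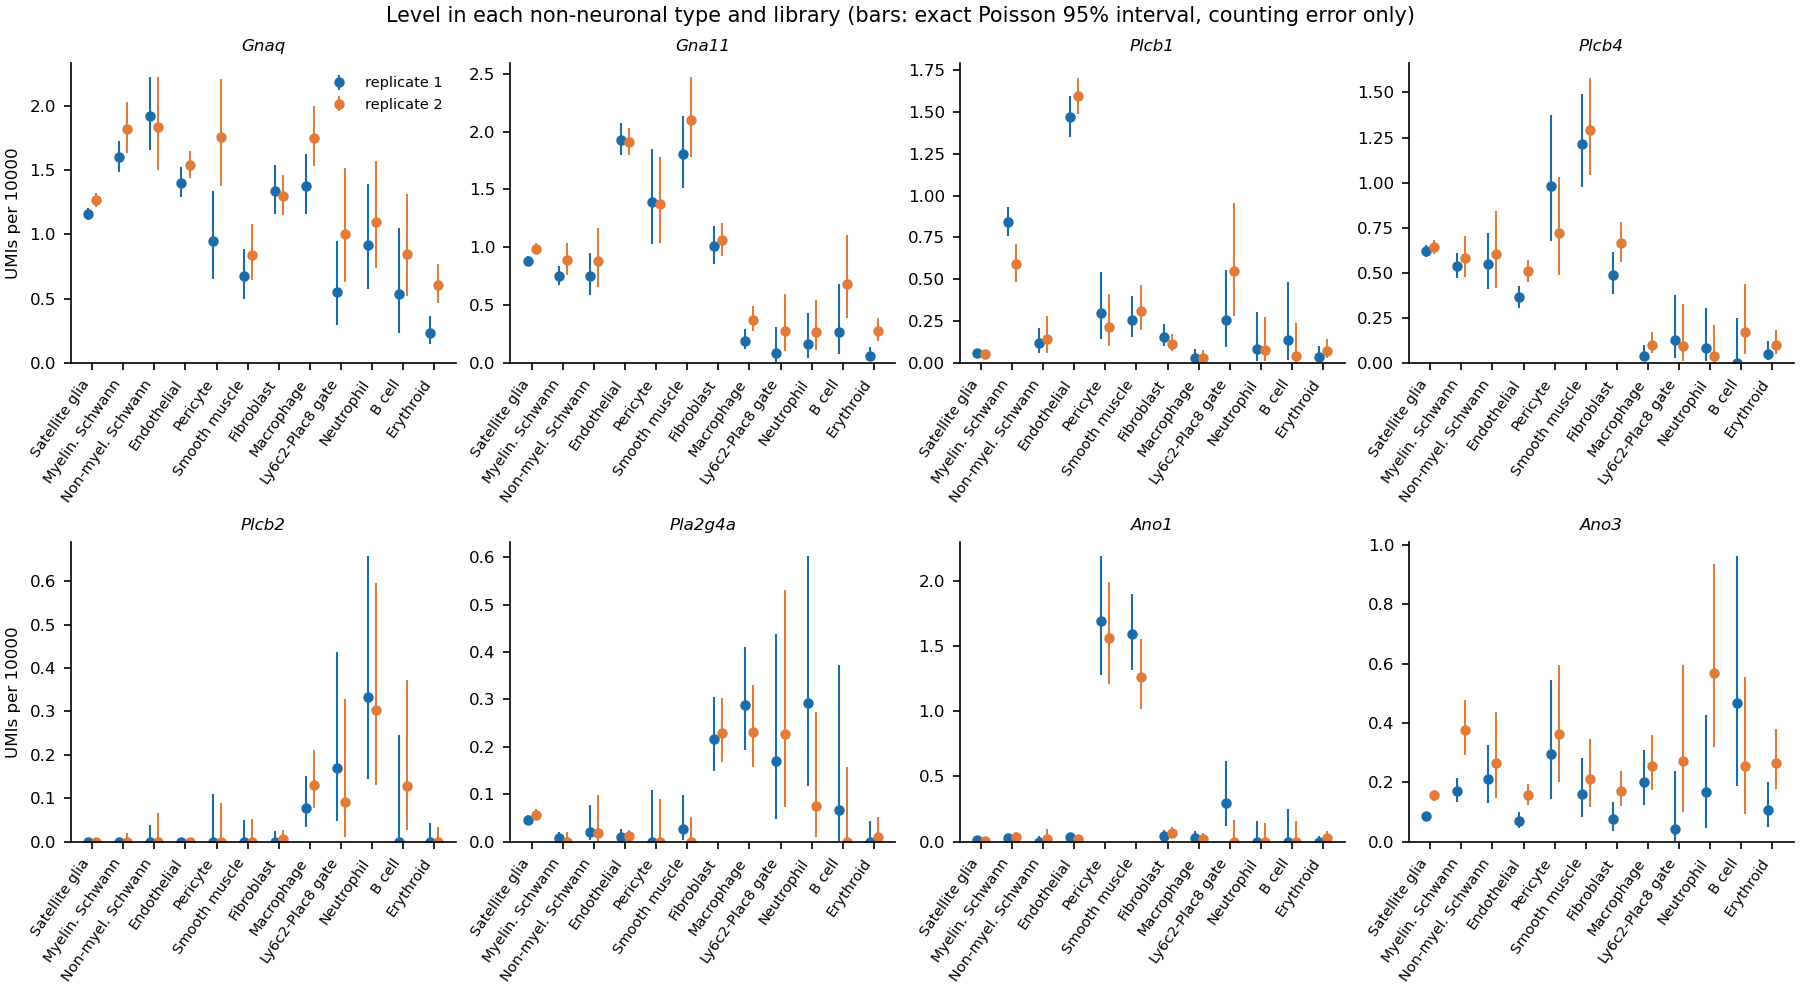
Level of 8 genes in 12 non-neuronal types, in UMIs per 10000 on axes that start at 0, with each library as a point and its exact Poisson 95% interval. Plcb1 peaks in endothelial cells (1.47 and 1.60), Plcb4 in smooth muscle (1.21 and 1.29) and Ano1 in pericytes and smooth muscle, while Plcb2 is highest in neutrophils (0.334 and 0.303).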

How the data were processed

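Droplet single-cell RNA-seq of 2 AEW libraries was analysed. The authors deposited raw UMI counts per gene and barcode, made with Cell Ranger 5.0.1 on mm10 after CASAVA 1.8, per the submitters' processing notes. The annotation release, the cell calling and the counting of introns were not given in the sources used here. The libraries held 113251556 and 102347251 UMIs in 8818 and 11767 barcodes. Cells needed 500 genes and under 20% mitochondrial UMIs. Scrublet's own thresholds marked 1 and 0 cells, so the highest doublet scores were removed at 0.8% per 1000 cells (555 and 1020 cells). Named types needed a marker score of 0.5 with a lead of 0.25 (neurons) or 0.3 with a lead of 0.15 (other cells), and 20 cells per library. Counts were summed per type and library and tested with edgeR 4.0.16 (quasi-likelihood, TMM, filterByExpr, library as a term), with Benjamini-Hochberg adjustment at 0.05. Tested on simulated data, the fit for NP1 over 13226 genes recovered 100% of 100 genes changed 2-fold and 100% of 100 changed 4-fold, with 10 false calls. The simulated data had the same spread for all genes, no library effect and no other differences between types. Changed genes were at 10 CPM or more, so the check does not cover calls on lower genes. Types of the same library were paired by the library term. Cells were thinned to 20000 or 2000 UMIs for shares, whose intervals are exact Clopper-Pearson (for a count of 0, the limit is 3 counts of the total), and all intervals cover counting error only. Members, lists and gates were chosen with earlier results of these data known. All 10 members were described, with the 3 genes most like each over neuron types and up to 2 called genes per list and direction at 20 CPM or more. Alternatives were DESeq2 1.42.0, no filter, no TMM factors, no library term, no doublet removal, 10% mitochondrial UMIs, a stricter gate, Leiden clusters and each library alone. Neurons from 5000 UMIs, and a fit without the NF and Trpm8-Gpr26 gates, were added after seeing the data. Positions are from GENCODE release 21 and windows from RefSeq. Of 31253 identifiers, 31107 matched GENCODE. Some genes that the naming rule takes are not reported here.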

Additional observations from a re-analysis of the deposited data

How the results depend on the processing

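Counts of genes called stayed within 1.5 times under every alternative but one: without TMM factors 7721 genes were called in the erythroid gate (2435 with them) and 3616 in non-myelinating Schwann cells (2319 with them). The median of all genes between neurons and other types was 0.10, 0.26 without TMM factors, 0.21 without a filter, −0.08 with Leiden clusters and −0.27 with DESeq2. With no replicate block (no library term), 3718 genes were called between NP2 and NP3 and the peptidergic types, against 4717 with it, and beside the calls given above it ended those of Plcb4 in PEP-A, Gnaq in smooth muscle and Ano3 in satellite glia. Over all alternatives 20 of 500 recomputed member folds that were called in the neuron and neuron-against-other comparisons lost their call, as did 24 of 296 in the non-neuronal ones, and 18 uncalled ones passed. Of 320 recomputed shares of cells 195 moved outside their binomial interval under another thinning depth or none, and 29 of 380 list counts moved by over 1.5 times. The sign of a called fold turned once, for Plcb4 between neurons and other types, at 0.04 without replicate 2 (B cells of replicate 1 held 0 UMIs of it) and −0.97 without replicate 1. Uncalled folds that turned were Gnaq in PEP-C (0.02 with no filter, 0.03 with no TMM factors), Plcb1 in PEP-C (−0.10, stricter gate), Gna14 in PEP-C (0.19, Leiden clusters), Ano3 in PEP-A (0.36, Leiden clusters) and Plcb3 in PEP-A (−0.29 with Leiden clusters, −0.03 with 10% mitochondrial UMIs). Without the NF and Trpm8-Gpr26 gates, Plcb3 turned in PEP-A (−0.50) and PEP-C (−0.22) and Gna11 in PEP-C (−0.09). With 1 library alone, which has no test, Gnaq in PEP-C (0.06, without replicate 2), Ano3 in PEP-A (0.01) and NP2 (0.20, both without replicate 2) and in NF (0.06, without replicate 1), Plcb3 in PEP-A (−0.10, without replicate 1) and the NF folds of Gna14 and Plcb3 given above turned too. The cause was not tested. The stricter gate left too few PEP-A and Ly6c2-Plac8 cells, and Leiden clusters gave no Ly6c2-Plac8 group, so no value exists there. With each library alone no residual degrees of freedom remain. A few UMIs limit Plcb2, Pla2g4a and, in neurons, Ano1.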

Other observations

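Neurons that scored for no single type, 94 in replicate 1 and 134 in replicate 2, entered no comparison. They held Gnaq at 3.87 and 3.45 UMIs per 10000, Plcb3 at 1.31 and 1.29, Gna14 at 1.07 and 1.19 and Ano3 at 0.900 and 0.828. Gna11 was at 1.40 and 1.30, Plcb1 at 0.241 and 0.184, and Plcb4 at 0.233 and 0.209. Pla2g4a was at 0.00229 and 0.00188 and Ano1 at 0.00343 and 0.00941. For Gnaq, Gna14 and Plcb3 these levels lay between those of the non-peptidergic and the peptidergic types of the same library. Gnaq was thus above PEP-C (3.73 and 2.91) in both libraries.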
